A study of Homo sapiens with 39 samples.

Results

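The DNA damage and replication stress checkpoint was followed through 10 genes: the kinases ATM and ATR, the ATR partner ATRIP, the effector kinases CHEK1 and CHEK2, the CDK inhibitory kinases WEE1 and PKMYT1, and the replication fork and adaptor genes CLSPN, TOPBP1 and TIMELESS. They were taken by name from the pathway, with no threshold on a measured value, and make up 10 of the 63187 genes in the count table. All 10 were found, and all 10 passed the filter on low counts in both experiments, so each count below is out of every listed gene.

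RNA was measured in C4-2B, a castration-resistant prostate cancer line derived from LNCaP, which makes every group here 1 cell line. The first experiment, a panel of 21 libraries, treated the cells for 5 days with the vehicle DMSO, talazoparib (10 nM), olaparib (1 µM), enzalutamide (20 µM), abiraterone acetate (5 µM), abiraterone acetate with olaparib at these doses, or enzalutamide with talazoparib at these doses. A time course of 18 libraries gave DMSO, 1 µM olaparib or 5 µM olaparib for 1 day or 5 days. Each of the 13 groups held 3 libraries, called replicates A, B and C in the panel and 1, 2 and 3 in the time course. Abiraterone blocks androgen synthesis by CYP17A1, and enzalutamide blocks the response to androgens; both belong to the class abbreviated ARPi. Olaparib and talazoparib are PARP inhibitors (PARPi), which hold PARP1 on damaged DNA. The study asked how cells respond to each class alone and together. Nothing in the labels says whether replicates were separate cultures, so p-values measure only the spread between these samples, which may be technical. The estimated counts added up to between 26932205 and 49833473 per library in the panel and between 34214001 and 44893664 in the time course. Levels are given as CPM, the estimated counts of a gene scaled to library size, with TMM factors over all 39 libraries. A gene was called, and is said to have risen or fallen, when edgeR's quasi-likelihood test gave an adjusted p under 0.05 after Benjamini-Hochberg adjustment over all genes tested, 18625 for the panel and 18502 for the time course.

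The labelled cell type was checked against its markers. Over the 39 libraries FOLH1 lay between 594 and 1039 CPM, HOXB13 between 156 and 296, and the epithelial KRT8 between 214 and 529. The leukocyte marker PTPRC was at most 1.17 CPM and the endothelial marker PECAM1 at most 0.108. COL1A1, known from fibroblasts, was the most abundant gene of the list of other lineages, at 10.6 to 22.0 CPM. The summed level of these 3 markers was 13.8, 10.6 and 11.4 CPM in the DMSO libraries of the panel, 20.1, 19.6 and 18.1 with abiraterone and 19.1, 17.4 and 18.97 with enzalutamide. It was 15.8, 15.9 and 15.2 with olaparib, 14.4, 14.5 and 13.2 with talazoparib, 21.5, 22.9 and 22.02 with abiraterone plus olaparib, while the other combination, enzalutamide plus talazoparib, gave 21.7, 21.7 and 22.8. In the time course the group means of this sum lay between 12.0 and 16.1 CPM. Both tested markers of the list rose with each ARPi and each combination. In the panel 1 of the 2 rose with olaparib and 1 with talazoparib, and in the time course the 1 marker tested rose at day 1 with both doses and at day 5 with 1 µM. Their part in the results below was not tested. The androgen-responsive genes KLK3 and TMPRSS2 had log2 fold changes of −1.58 ± 0.05 and −2.45 ± 0.08 (SE) with abiraterone, and −2.25 ± 0.05 and −2.80 ± 0.08 with enzalutamide.

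As background, ATM is recruited to DNA double-strand breaks and phosphorylates CHEK2, whereas ATR, bound to ATRIP, is recruited to single-stranded DNA at stalled forks, activated by TOPBP1 and relayed to CHEK1 by CLSPN. CHEK1 restrains the CDC25 phosphatases, and WEE1 and PKMYT1 phosphorylate CDK1, so that entry into mitosis waits for replication and repair. In prostate cancer, ATM is among the repair genes that are altered in advanced disease, and loss of repair by homologous recombination is the setting in which PARPi are used.

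Compared per kilobase of the canonical transcript, the levels in the DMSO libraries of the panel ran from ATM to TIMELESS. TIMELESS stood highest at 30.5 ± 0.788 CPM per kb (SD, n = 3), followed by TOPBP1 at 26.4 ± 0.977. CHEK2 had 17.9 ± 0.738, CHEK1 13.2 ± 1.25 and ATR 11.6 ± 0.925 CPM per kb. WEE1 and PKMYT1 lay at 10.3 ± 0.654 and 9.98 ± 0.896 CPM per kb, within their spread of each other. CLSPN had 6.73 ± 0.877 CPM per kb, and ATRIP and ATM were lowest and also within their spread, at 4.46 ± 0.190 and 4.38 ± 0.373. Depth was ample for all 10: the lowest count in any library was 183, of PKMYT1, and the highest 8441, of TIMELESS. The coefficient of variation between the 3 libraries of a group had a median over groups of 1.86% for TIMELESS and 4.53% for ATRIP, the ends of the range, and its highest value was 13.04%, for CLSPN in the DMSO libraries of the panel. CHEK2 has 7 named pseudogene copies and WEE1 has 2; these copies together held at most 11 counts in a library beside CHEK2 and at most 6 beside WEE1, or at most 1.285% and 0.314% of the sum of gene and copies. How reads were split between gene and copies is uncertain. On the same strand ATRIP overlaps TREX1, CHEK1 overlaps STT3A and an snRNA gene, ATR a lncRNA gene and WEE1 a snoRNA gene. On the other strand ATM (C11orf65), CHEK1 (ACRV1), CHEK2 (HSCB) and PKMYT1 (KREMEN2, PAQR4) overlap protein-coding genes, and ATM, ATR, CHEK1, CLSPN and TOPBP1 overlap non-coding genes or a pseudogene; the library kit kept strand, but the setting used in counting was not stated, so these values are uncertain to that extent.

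ATR (ENSG00000175054.16, chr3:142449007-142578733, minus strand, GRCh38), the kinase of stalled forks, had the largest change of the 10 genes with either ARPi. Its DMSO libraries in the panel read 86.96, 94.4 and 102 CPM (replicates A, B and C). With abiraterone ATR read 71.9, 73.7 and 75.6 CPM, and with enzalutamide 65.9, 72.05 and 71.4. All 6 ARPi libraries lay below all 3 DMSO libraries, and the log2 fold changes were −0.36 ± 0.04 with abiraterone (SE; adjusted p = 2.28e-08, edgeR) and −0.43 ± 0.04 with enzalutamide (adjusted p = 4.04e-10, edgeR). Abiraterone plus olaparib gave 80.2, 79.5 and 79.9 CPM, and enzalutamide plus talazoparib 68.6, 73.2 and 73.3. These too lay below every DMSO library. Under PARPi alone the values were 88.02, 93.8 and 92.4 CPM with olaparib and 86.6, 85.3 and 88.5 with talazoparib, within or overlapping the range of DMSO. The order of mean ATR levels in the panel was DMSO, olaparib, talazoparib, abiraterone plus olaparib, abiraterone, enzalutamide plus talazoparib and enzalutamide; the ranges of neighbouring groups were apart only at 2 of the 6 steps, on either side of abiraterone plus olaparib. In the time course the group means of ATR stayed between 84.6 and 90.01 CPM. ATR was called with neither dose of olaparib on either day.

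The 250 bases before the annotated start of ATR are shown because ATR fell with ARPi and not with olaparib; the choice was made after the values were seen. They were taken from RefSeq (GRCh38.p14), chr3:142578734-142578983, minus strand, and hold no annotated exon. Each promoter was searched on both strands for an E2F site (TTTCCCGC, TTTCGCGC, TTTGCCGC or TTTGGCGC), a cell cycle homology region or CHR (TTTGAA or TTCGAA) and a CCAAT box (CCAAT), none of which holds another of them. The ATR window held none of these letters.
ATR promoter: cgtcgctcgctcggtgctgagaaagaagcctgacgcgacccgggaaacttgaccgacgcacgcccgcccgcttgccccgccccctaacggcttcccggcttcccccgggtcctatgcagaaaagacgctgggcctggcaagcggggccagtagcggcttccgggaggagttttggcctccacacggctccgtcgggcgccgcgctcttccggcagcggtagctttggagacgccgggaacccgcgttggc

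ATM (ENSG00000149311.21, chr11:108223044-108369102, plus strand, GRCh38), the kinase of double-strand breaks, went in different directions in different groups. At day 1 of the time course it read 44.5, 45.1 and 45.4 CPM with DMSO (replicates 1, 2 and 3), 46.2, 43.8 and 44.9 with 1 µM olaparib and 51.9, 54.2 and 53.5 with 5 µM. The 5 µM libraries lay above all 6 others of that day. ATM rose there by a log2 fold change of 0.25 ± 0.04 (adjusted p = 9.28e-07, edgeR). At day 5 the values were 47.7, 44.3 and 44.3 CPM with DMSO and 48.4, 47.1 and 44.4 with 5 µM olaparib, which overlapped. In the panel DMSO gave 51.1, 59.99 and 58.6 CPM, abiraterone 45.2, 52.8 and 46.1 and enzalutamide 46.9, 49.3 and 52.4; DMSO replicate A lay low and the ranges overlapped. Talazoparib gave 50.5, 49.96 and 49.5 CPM, below every DMSO library. ATM was called lower with abiraterone (−0.24 ± 0.06), enzalutamide (−0.19 ± 0.06) and talazoparib (−0.18 ± 0.06). The fits in which the calls with enzalutamide and talazoparib ended are given below. The ranges of all 6 pairs of groups neighbouring in mean level overlapped for ATM in the panel. In the time course 4 of 5 did, and 5 µM olaparib at day 1 stood apart.

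ATRIP (ENSG00000164053.22, chr3:48446710-48467645, plus strand, GRCh38), which brings ATR to single-stranded DNA coated by RPA, varied little. Its means ran from 19.1 ± 0.673 CPM with enzalutamide to 21.7 ± 0.471 with olaparib in the panel (SD, n = 3), and from 23.3 ± 0.287 with 5 µM olaparib at day 5 to 26.4 ± 1.20 with DMSO at day 1 in the time course. The ranges of all 11 pairs of neighbouring groups overlapped. ATRIP was called in no comparison of the panel. In the time course it was called lower with 5 µM olaparib at day 1 (−0.13 ± 0.05). It was also called lower in DMSO at day 5 than at day 1 (−0.14 ± 0.05). In both the libraries of the 2 groups did not overlap, and the fits in which these calls ended are given below.

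**Figure D1:**
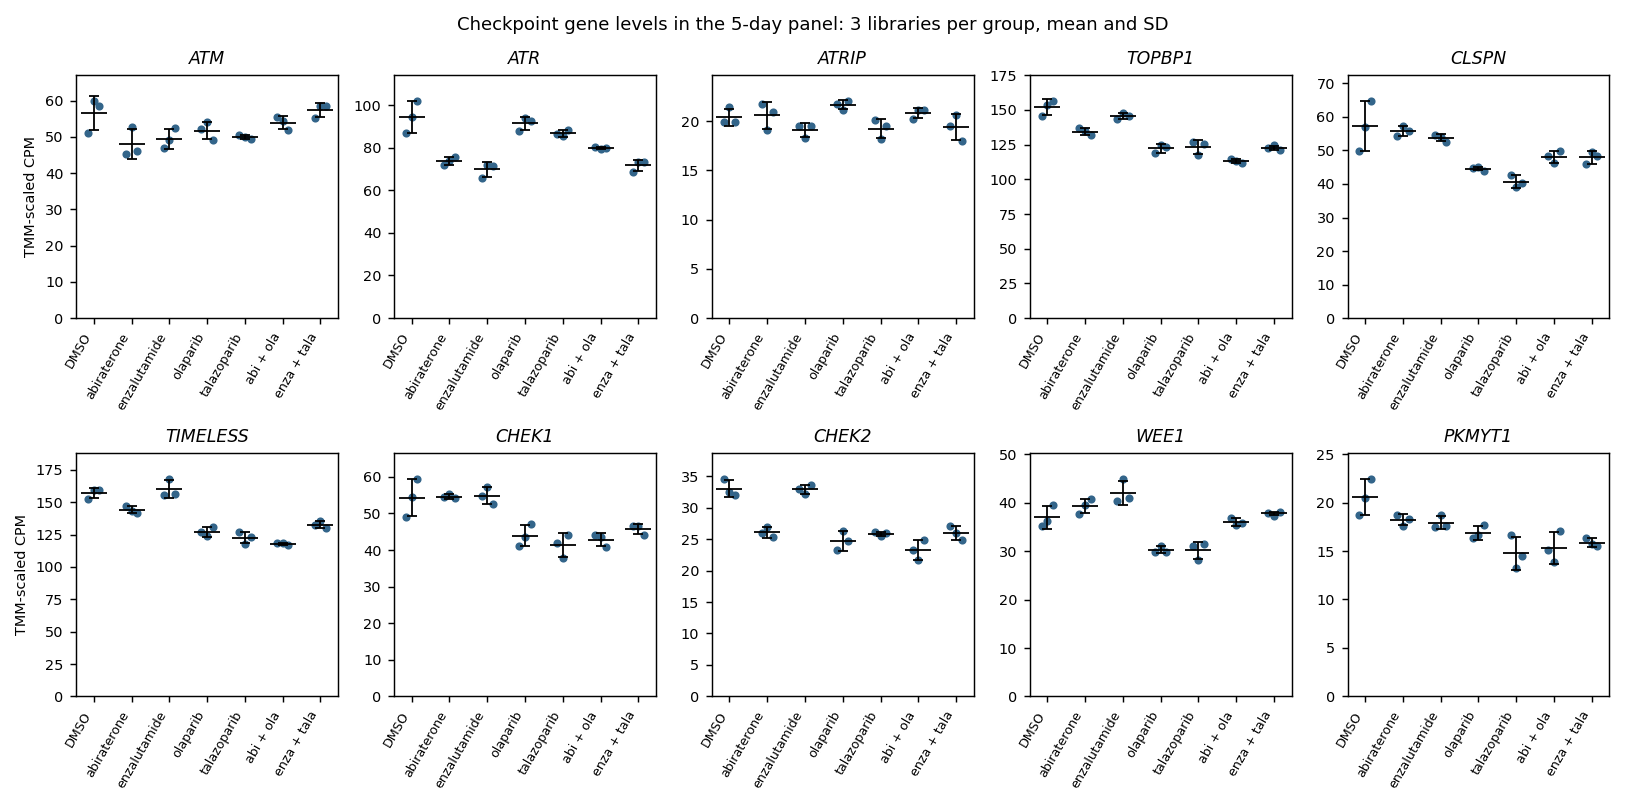
TMM-scaled CPM (vertical axis, from 0) of each checkpoint gene in the 7 groups of the 5-day panel. Points are the 3 libraries of a group, with the mean and SD. ATR lies lowest in the groups with an ARPi, whereas CHEK1, PKMYT1, TOPBP1 and TIMELESS lie lower in the groups with a PARPi.

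CLSPN (ENSG00000092853.14, chr1:35720218-35769978, minus strand, GRCh38), the adaptor that brings CHEK1 to ATR, fell furthest of the 10 genes at 5 µM olaparib and day 5, within error of PKMYT1. At day 5 the DMSO libraries read 94.1, 87.99 and 89.7 CPM, 1 µM olaparib 64.5, 62.1 and 61.5 and 5 µM olaparib 16.7, 15.96 and 17.1. The 3 groups did not overlap, and the level stepped down with the dose. The log2 fold change was −0.54 ± 0.03 at 1 µM (adjusted p = 1.62e-16, edgeR) and −2.46 ± 0.04 at 5 µM (adjusted p = 2.00e-35, edgeR), the latter a change of −81.8% in level. At day 1 it read 95.04, 97.1 and 89.5 CPM with DMSO and 99.9, 101 and 103 with 5 µM, and the 5 µM libraries lay above the controls. With 1 µM it read 85.7, 89.1 and 91.7 CPM on that day, which overlapped DMSO. This change was in the other direction and was not called (−0.07 ± 0.03). In the panel DMSO gave 49.9, 57.03 and 64.9 CPM, olaparib 44.7, 45.02 and 43.98 and talazoparib 42.7, 39.03 and 40.4. Both PARPi groups lay below every DMSO library, among which CLSPN spread more than in any other group. Enzalutamide plus talazoparib gave 45.97, 49.5 and 48.2 CPM, between enzalutamide alone at 54.7, 54.01 and 52.6 and talazoparib alone.

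The promoter of CLSPN is shown beside that of ATR because it belongs to the members that fell together with olaparib, again a choice made after the values were seen. It lies at chr1:35769979-35770228, minus strand (GRCh38.p14, RefSeq), and holds no annotated exon. Capitals mark the CCAAT letters, which here lie on the other strand and so read ATTGG; they stand 119 to 115, 94 to 90 and 46 to 42 bases before the start.
CLSPN promoter: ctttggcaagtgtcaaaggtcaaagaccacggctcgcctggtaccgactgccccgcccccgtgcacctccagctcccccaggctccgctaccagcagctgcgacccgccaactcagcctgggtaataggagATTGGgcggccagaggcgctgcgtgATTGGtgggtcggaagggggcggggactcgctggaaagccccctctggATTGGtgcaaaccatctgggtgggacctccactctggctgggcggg

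Of the 10 members, 8 had a promoter in the table, with 12 windows of 250 bases, and WEE1 and PKMYT1 had none. Only the windows of ATR and CLSPN held no annotated exon. Those of ATM, ATRIP, CHEK1, CHEK2 and TOPBP1 overlapped exons of the gene itself, and that of TIMELESS an exon of MIP. These windows are thus not wholly upstream of annotated transcripts. No window of the 8 held the E2F letters, which 2.788% of all 35116 promoters held. The CHR letters were in 1 window, of ATM, against 14.335% of all promoters. CCAAT was in at least 1 window of ATM, ATRIP, CHEK1, CHEK2, CLSPN and TIMELESS and in none of ATR and TOPBP1. Of all promoters 32.008% held it, counted promoter by promoter. ATM, ATRIP and CHEK1 had more than 1 window, and those of CHEK1 overlap, so count by gene and share are not like for like. A match describes the letters only.

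TIMELESS (ENSG00000111602.12, chr12:56416363-56449426, minus strand, GRCh38), part of the complex that travels with the fork, had the highest level per kilobase in every group and the smallest median coefficient of variation. It read 177, 181 and 182 CPM with DMSO at day 5, 139, 137 and 134 with 1 µM olaparib and 68.3, 67.7 and 66.1 with 5 µM. Each group lay below the one before, and the fall at 5 µM was −1.43 ± 0.02 on the log2 scale (adjusted p = 3.79e-34, edgeR). A day after treatment the order was the opposite, with 192, 189 and 193 CPM with DMSO and 208, 204 and 201 with 5 µM. TOPBP1 (ENSG00000163781.14, chr3:133598175-133662380, minus strand, GRCh38), which activates ATR, read 156, 158 and 156 CPM with DMSO at day 5, 122, 121 and 118 with 1 µM and 68.1, 70.7 and 67.5 with 5 µM. These 3 groups did not overlap either. In the panel TOPBP1 read 146, 154 and 157 CPM with DMSO, 119, 125 and 123 with olaparib and 115, 113 and 112 with abiraterone plus olaparib, its lowest group there.

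CHEK1 (ENSG00000149554.15, chr11:125625163-125676255, plus strand, GRCh38), the effector kinase below ATR, read 69.7, 68.1 and 67.1 CPM with DMSO at day 5, 47.8, 46.5 and 46.6 with 1 µM olaparib and 13.8, 13.2 and 14.7 with 5 µM. The levels at 5 µM were far below both other groups, with no overlap. The log2 fold change was −2.31 ± 0.04 at 5 µM (adjusted p = 5.85e-34, edgeR). In the panel CHEK1 read 49.1, 54.4 and 59.4 CPM with DMSO, 41.2, 43.6 and 46.99 with olaparib and 41.98, 37.7 and 44.1 with talazoparib. With abiraterone it read 54.4, 55.3 and 54.1 CPM and with enzalutamide 54.7, 57.2 and 52.6, inside the DMSO range. In the panel the groups with and without a PARPi did not overlap for CHEK1.

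CHEK2 (ENSG00000183765.24, chr22:28687743-28742422, minus strand, GRCh38), the effector kinase below ATM, fell with abiraterone and was not called with enzalutamide. It read 34.6, 32.4 and 32.04 CPM with DMSO, 26.01, 26.97 and 25.3 with abiraterone and 32.9, 32.2 and 33.6 with enzalutamide. The abiraterone libraries lay below every DMSO library, while those with enzalutamide lay among the DMSO libraries; abiraterone was not tested against enzalutamide. Olaparib gave 23.2, 26.3 and 24.7 CPM and talazoparib 26.1, 25.5 and 26.00, both below DMSO. At day 5 of the time course CHEK2 read 33.8, 33.2 and 34.3 CPM with DMSO, 26.7, 24.1 and 25.9 with 1 µM olaparib and 12.6, 13.2 and 13.5 with 5 µM. The log2 fold change at 5 µM was −1.38 ± 0.05 (adjusted p = 9.96e-25, edgeR), and the 3 groups did not overlap.

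WEE1 (ENSG00000166483.12, chr11:9573670-9593457, plus strand, GRCh38), the nuclear kinase that holds CDK1 inactive, had the largest change of the 10 genes at 5 µM and day 1. On that day it read 51.3, 48.01 and 50.3 CPM with DMSO, 46.8, 47.4 and 46.3 with 1 µM olaparib and 35.1, 35.5 and 35.1 with 5 µM. The 5 µM libraries stood apart after 1 day, with a log2 fold change of −0.49 ± 0.04 (adjusted p = 3.58e-13, edgeR). At day 5 WEE1 read 52.9, 53.1 and 49.8 CPM with DMSO, 40.2, 37.3 and 36.9 with 1 µM and 13.6, 12.8 and 11.7 with 5 µM. The fall at 5 µM had grown to −2.04 ± 0.05 (adjusted p = 1.57e-30, edgeR). In the panel WEE1 was also the only member called higher with an ARPi: DMSO read 35.2, 36.2 and 39.7 CPM and enzalutamide 40.3, 44.9 and 40.99. With olaparib it read 29.9, 31.2 and 29.8 CPM, and with abiraterone plus olaparib 36.9, 35.3 and 35.9, back in the DMSO range.

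PKMYT1 (ENSG00000127564.17, chr16:2968024-2980479, minus strand, GRCh38), the membrane-bound kinase of CDK1, had the lowest median count of the 10 over the 39 libraries. It read 30.3, 30.6 and 30.4 CPM with DMSO at day 5, 21.9, 23.1 and 23.3 with 1 µM olaparib and 5.64, 5.17 and 6.05 with 5 µM. No groups overlapped, and the log2 fold change at 5 µM was −2.45 ± 0.06 (adjusted p = 1.27e-30, edgeR). A day after treatment the values overlapped, at 33.8, 35.9 and 33.1 CPM with DMSO and 34.2, 34.3 and 33.7 with 5 µM. The panel gave 18.8, 20.5 and 22.4 CPM with DMSO, 16.3, 16.6 and 17.7 with olaparib and 16.6, 13.2 and 14.5 with talazoparib. Both PARPi groups lay below every DMSO library, and they overlapped each other.

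**Figure D2:**
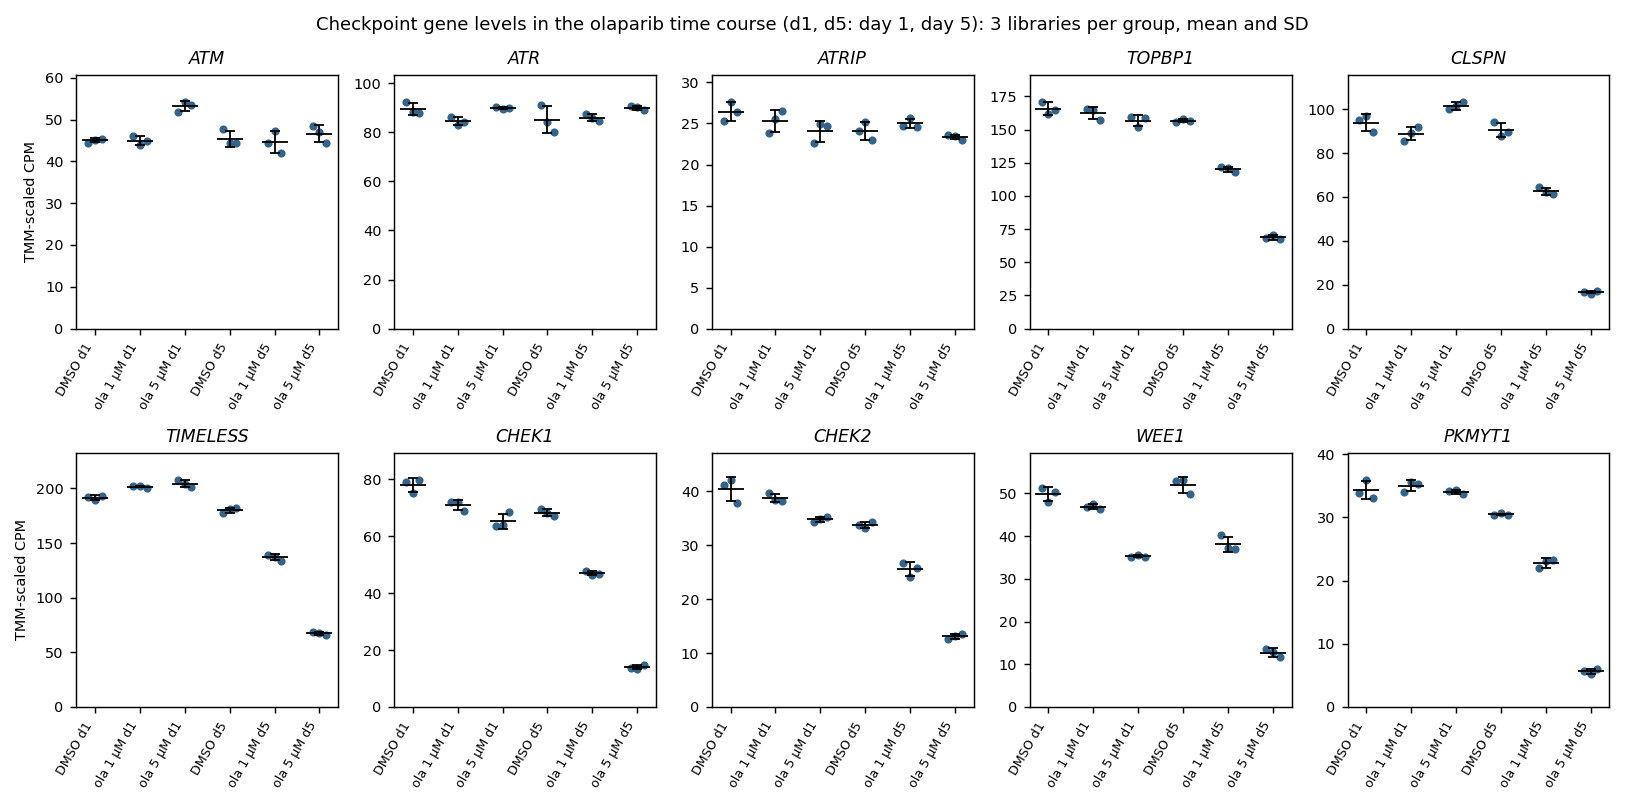
TMM-scaled CPM (vertical axis, from 0) of each checkpoint gene in the 6 groups of the olaparib time course, with DMSO, 1 µM and 5 µM at days 1 and 5. Points are the 3 libraries of a group, with the mean and SD. At day 5 CHEK1, CHEK2, WEE1, PKMYT1, CLSPN, TOPBP1 and TIMELESS step down with dose, whereas ATM, ATR and ATRIP stay near DMSO.

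The panel addressed what a PARPi alone does after 5 days. Olaparib at 1 µM lowered CHEK1, CHEK2, WEE1, PKMYT1, CLSPN, TOPBP1 and TIMELESS, 7 of the 10 members, and raised none; of all genes tested 35.6% were called, and 16.0% were called lower. CHEK2 had the largest fall with olaparib, −0.41 ± 0.05 (SE; adjusted p = 1.13e-07, edgeR), and for the other 6 the log2 fold changes lay between −0.36 (CLSPN) and −0.28 (PKMYT1). In each of the 7, which were picked by their calls, all olaparib libraries lay below all DMSO libraries. The share of all genes tested that part in this way was not counted. The median over the 10 members was −0.29, against 0.02 over all genes tested. Talazoparib at 10 nM lowered 9 members, the same 7 with ATM and ATR, against 33.8% of all genes called and 15.4% called lower. CLSPN had the largest fall with talazoparib, −0.49 ± 0.06 (adjusted p = 5.28e-07, edgeR), next to PKMYT1 at −0.48 ± 0.07. The changes of ATM and ATR were smaller, at −0.18 ± 0.06 and −0.12 ± 0.04. Both comparisons used the same DMSO libraries, and olaparib was not tested against talazoparib. The talazoparib call of ATM ended without DMSO replicate B or C (adjusted p = 0.111 and 0.0991, edgeR), and that of ATR ended without DMSO replicate B, DMSO replicate C or talazoparib replicate B (adjusted p between 0.0577 and 0.343, edgeR) and when only the groups compared were fitted (0.0509). Its log2 fold change was −0.06 without DMSO replicate C.

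The 9 proliferation markers on the list (MKI67, PCNA, TOP2A and 6 MCM genes) all fell with olaparib and all fell with talazoparib, with medians of −0.31 and −0.39. MKI67, a marker of cycling cells singled out after its values were seen, had log2 fold changes of −0.59 ± 0.09 and −0.76 ± 0.09. The part of proliferation in the changes of the 7 members was not tested. In bulk RNA, fewer cells of a type and less RNA per cell cannot be told apart.

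The panel also held each ARPi alone. Abiraterone lowered 6 members, ATM, ATR, CHEK2, PKMYT1, TOPBP1 and TIMELESS, and raised none, against 52.9% of all genes called and 27.1% called lower. ATR had the largest fall, given above, next to CHEK2 at −0.34 ± 0.05 (adjusted p = 1.75e-06, edgeR), ATM at −0.24 ± 0.06 and TOPBP1 at −0.18 ± 0.03. The changes of CHEK1, CLSPN and WEE1 were not called and measured 0.01 ± 0.06, −0.04 ± 0.06 and 0.09 ± 0.05. Enzalutamide lowered ATM (−0.19 ± 0.06), ATR and PKMYT1 (−0.19 ± 0.07) and raised WEE1 by 0.19 ± 0.05 (adjusted p = 0.00131, edgeR), which makes 4 members called against 53.3% of all genes, 27.0% called higher and 26.3% lower. The members' median was −0.15 with abiraterone and −0.07 with enzalutamide, against 0.00 and 0.02 over all genes, and their share called was close to that of all genes. Abiraterone's call of PKMYT1 ended without any 1 of abiraterone replicates A, B and C or DMSO replicates B and C (adjusted p between 0.0674 and 0.296, edgeR; log2 fold change −0.11 without DMSO replicate C), and with RLE scaling (0.0544), total-count scaling (0.253), DESeq2 (0.0551) or only the groups compared (0.0564); total-count scaling also ended that of TIMELESS (0.174). With enzalutamide the call of ATM ended without DMSO replicate B or C (adjusted p = 0.0570 and 0.0502, edgeR) and under total-count scaling (0.0555), and that of PKMYT1 without enzalutamide replicate A or C, DMSO replicate C (adjusted p between 0.0743 and 0.209, edgeR; log2 fold change −0.12 without DMSO replicate C) or under total-count scaling (0.118), so that 2 members were called without DMSO replicate C.

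Both combinations lowered 7 members, ATR, CHEK1, CHEK2, PKMYT1, CLSPN, TOPBP1 and TIMELESS, and raised none. Of all genes tested, 62.2% were called with abiraterone plus olaparib (31.1% lower) and 62.4% with enzalutamide plus talazoparib (31.3% lower). Abiraterone plus olaparib gave CHEK2 its largest fall of the panel, −0.50 ± 0.05 (adjusted p = 6.16e-10, edgeR), with PKMYT1 and TOPBP1 at −0.42 ± 0.08 and −0.42 ± 0.03. Under enzalutamide plus talazoparib ATR had the largest fall, −0.40 ± 0.04 (adjusted p = 1.19e-09, edgeR), followed by PKMYT1 at −0.37 ± 0.07 and CHEK2 at −0.34 ± 0.05. WEE1 was called in neither combination and measured −0.03 ± 0.05 and 0.03 ± 0.05, and ATM likewise, at −0.06 ± 0.06 and 0.02 ± 0.06. The medians over the members were −0.29 and −0.25, against 0.01 and 0.01 over all genes. MKI67 had −0.75 ± 0.09 and −0.56 ± 0.09 in these combinations, and its part was not tested. The calls of CLSPN ended when only the groups compared were fitted (adjusted p = 0.0581 and 0.0542, edgeR), and without DMSO replicate C its log2 fold changes were −0.15 and −0.16 in place of −0.25 and −0.26.

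Each combination was also compared with its ARPi alone, the drugs of a combination being given together. Against abiraterone alone, the addition of olaparib lowered CHEK1, CHEK2, PKMYT1, CLSPN, TOPBP1 and TIMELESS and raised ATM and ATR, 8 members called against 29.2% of all genes (14.4% higher, 14.7% lower). CHEK1 had the largest fall, −0.34 ± 0.06 (adjusted p = 1.58e-04, edgeR), and TIMELESS and TOPBP1 had −0.28 ± 0.03 and −0.24 ± 0.03. ATM and ATR rose by 0.18 ± 0.06 and 0.12 ± 0.04. Talazoparib added to enzalutamide lowered CHEK1, CHEK2, WEE1, CLSPN, TOPBP1 and TIMELESS and raised ATM, 7 members against 34.4% of all genes (16.5% higher, 17.9% lower). Here CHEK2 had the largest fall, −0.34 ± 0.05 (adjusted p = 2.22e-06, edgeR), and ATM rose by 0.21 ± 0.06 (adjusted p = 0.00576, edgeR). Of the 9 proliferation markers, 8 fell with the added olaparib and 8 with the added talazoparib, with medians of −0.35 and −0.27, and their part was not tested. Of the added olaparib, the calls of ATM ended without abiraterone replicate A or C or combination replicate A or B (adjusted p between 0.0781 and 0.158, edgeR), of ATR without abiraterone replicate A or B or any 1 combination replicate (between 0.0805 and 0.176), and both under total-count scaling (0.0558 and 0.112); without combination replicate B, where 3 members were called, those of CHEK2 (0.205), PKMYT1 (0.141) and CLSPN (0.0622) ended as well, and CHEK2 also without abiraterone replicate B (0.103). Of the added talazoparib, the calls of WEE1 ended without enzalutamide replicate B or combination replicate B (adjusted p = 0.104 and 0.0534, edgeR) and those of CLSPN without enzalutamide replicate A or B or combination replicate A or C (between 0.0718 and 0.154).

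Additivity was tested as an interaction, in which 0 means that the log2 changes add up. For abiraterone and olaparib the departure was above 0 for ATM, 0.30 ± 0.08 (adjusted p = 0.0150, edgeR), and CHEK2, 0.25 ± 0.08 (adjusted p = 0.0287, edgeR), 2 members against 12.8% of all genes called and 4.74% called higher. For enzalutamide and talazoparib it was above 0 for ATM, 0.38 ± 0.08 (adjusted p = 0.00209, edgeR), and CLSPN, 0.33 ± 0.08 (adjusted p = 0.0118, edgeR), against 12.6% of all genes called and 5.32% called higher. The same DMSO libraries enter the departure and the single-drug changes with opposite signs. The other 8 members of each pair were not called. For enzalutamide and talazoparib the departures of the 10 members ran from 0.00 to 0.38. Their median was 0.13, against −0.03 over all genes tested. The largest not called was that of PKMYT1, 0.30 ± 0.10 (95% interval 0.09 to 0.51, adjusted p = 0.0551, edgeR). For ATR the departures of the first and the second pair measured 0.17 ± 0.06 and 0.15 ± 0.06, with 95% intervals of 0.05 to 0.29 and 0.03 to 0.27. For abiraterone and olaparib the call of ATM ended without DMSO replicate B (adjusted p = 0.0516, edgeR), and that of CHEK2 without abiraterone replicate A or C, combination replicate A or C, DMSO replicate A or olaparib replicate A (adjusted p between 0.0504 and 0.0994, edgeR); 1 member was called without abiraterone A or C, combination A or C, DMSO B or olaparib A. For enzalutamide and talazoparib the call of CLSPN ended when only the groups compared were fitted (adjusted p = 0.0676, edgeR), and 4 members were called without DMSO replicate A.

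**Figure D3:**
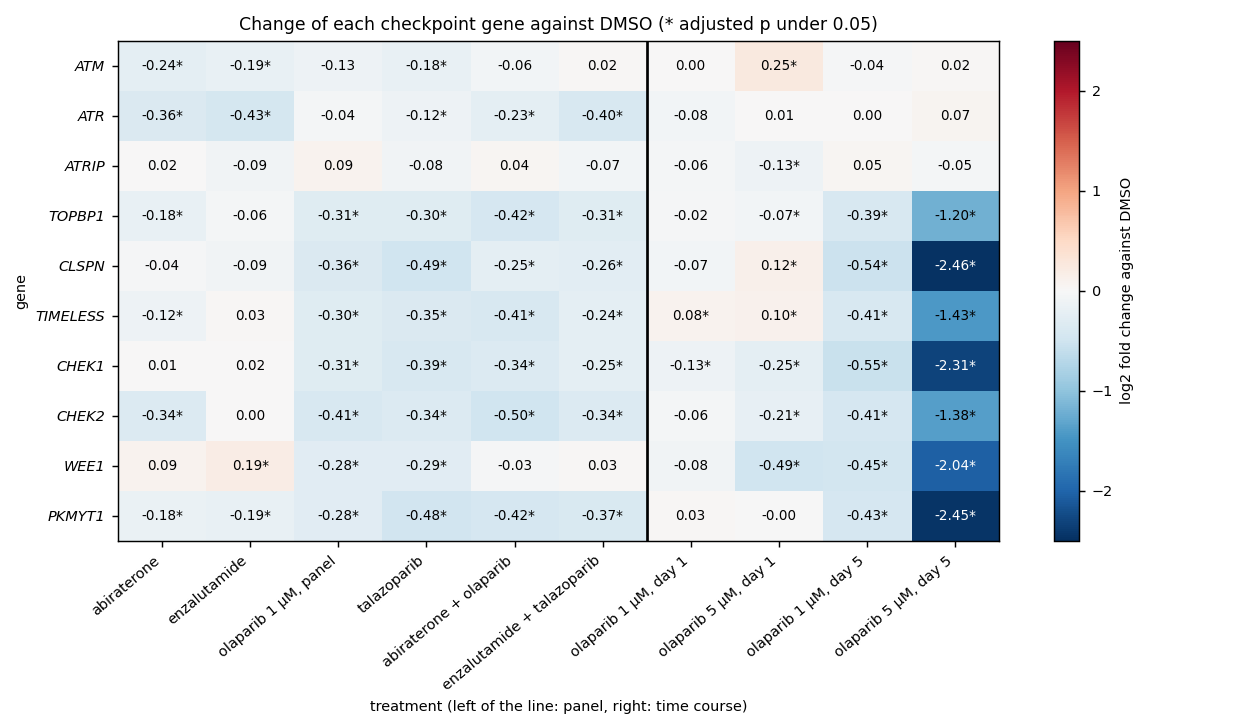
Log2 fold change of each checkpoint gene against DMSO of the same experiment and day (colour) for the 6 treatments of the panel and the 4 olaparib groups of the time course; stars mark called changes, with edgeR's adjusted p under 0.05. The column of 5 µM olaparib at day 5 holds the largest changes, from −2.46 for CLSPN to 0.07 for ATR.

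The time course asked how early and at which dose olaparib acts. After 1 day at 1 µM, TIMELESS was higher and CHEK1 lower, by 0.08 ± 0.02 (adjusted p = 0.0138, edgeR) and −0.13 ± 0.03 (adjusted p = 0.00290, edgeR), 2 members called against 15.8% of all genes (6.30% higher, 9.52% lower). At 5 µM for 1 day 8 members were called against 45.0% of all genes (21.6% higher, 23.4% lower). ATM, CLSPN and TIMELESS rose, with 0.25 ± 0.04, 0.12 ± 0.03 and 0.10 ± 0.02, and WEE1, CHEK1, CHEK2, ATRIP and TOPBP1 fell. The fall of WEE1 is given above; CHEK1 had −0.25 ± 0.03 (adjusted p = 3.29e-08, edgeR) and CHEK2 −0.21 ± 0.04 (adjusted p = 3.58e-05, edgeR). Members thus moved in both directions at day 1, with a median of −0.04 against 0.02 over all genes. MKI67 had −0.86 ± 0.03 at 5 µM on this day, and 1 of the 9 proliferation markers rose and 7 fell. At 1 µM the call of TIMELESS ended without DMSO replicate 2 (adjusted p = 0.0624, edgeR), which left 1 member called. At 5 µM the call of ATRIP ended without DMSO replicate 2 or olaparib replicate 1 (adjusted p = 0.130 and 0.184, edgeR; log2 fold change −0.09 without the latter, against −0.13) and under total-count scaling (0.154), and that of TOPBP1 without DMSO replicate 1 or olaparib replicate 2 (adjusted p = 0.180 and 0.174, edgeR), under total-count scaling (0.462), with no filter (0.0954) or a stricter one (0.0724) on low counts, and with only the groups compared (0.0538).

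After 5 days the same 7 genes, CHEK1, CHEK2, WEE1, PKMYT1, CLSPN, TOPBP1 and TIMELESS, fell at both doses and no member rose. At 1 µM 46.3% of all genes were called and 22.9% were lower. CHEK1 and CLSPN had the largest falls there, −0.55 ± 0.03 (adjusted p = 2.10e-16, edgeR) and −0.54 ± 0.03, and TOPBP1 the smallest, −0.39 ± 0.03. At 5 µM 68.2% of all genes were called and 33.9% were lower, so that a call by itself says little there. The median log2 fold change of the 10 members was −1.40 at 5 µM and −0.41 at 1 µM, against −0.01 and 0.00 over all genes. ATM, ATR and ATRIP measured 0.02 ± 0.04, 0.07 ± 0.03 and −0.05 ± 0.05 at 5 µM, with 95% intervals of −0.05 to 0.10, 0.00 to 0.13 and −0.15 to 0.04. All 9 proliferation markers fell at both doses, MKI67 with −0.66 ± 0.03 at 1 µM and −2.90 ± 0.04 at 5 µM on the log2 scale, and their part in the falls of the 7 members was not tested.

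The doses were compared directly. At day 1, 5 µM against 1 µM gave 6 calls against 28.8% of all genes (12.8% higher, 15.9% lower): ATM, ATR and CLSPN were higher at 5 µM and CHEK1, CHEK2 and WEE1 lower. WEE1 had −0.41 ± 0.04 (adjusted p = 1.16e-10, edgeR) and ATM 0.24 ± 0.04 (adjusted p = 2.42e-06, edgeR). The call of ATR, 0.09 ± 0.03, ended without replicate 2 or 3 of 1 µM or any 1 replicate of 5 µM (adjusted p between 0.0607 and 0.133, edgeR). At day 5 the 7 genes were all lower at 5 µM than at 1 µM, 7 calls against 53.6% of all genes (27.0% lower). PKMYT1 had the largest difference between doses, −2.02 ± 0.06 (adjusted p = 1.07e-26, edgeR), and TOPBP1 the smallest of the 7, −0.81 ± 0.03. For ATM, ATR and ATRIP the differences were 0.06 ± 0.04, 0.07 ± 0.03 and −0.10 ± 0.05, not called. All 9 proliferation markers were lower at 5 µM than at 1 µM on day 5, with a median of −1.33, and their part was not tested.

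The change with time was tested as the olaparib effect at day 5 minus that at day 1. At 1 µM this difference was below 0 for the 7 genes, 7 members called against 29.8% of all genes (14.2% lower), from −0.49 ± 0.03 for TIMELESS (adjusted p = 2.52e-14, edgeR) to −0.36 ± 0.06 for CHEK2. At 5 µM it was below 0 for the 7 genes and ATM, 8 members against 54.9% of all genes (27.7% lower). CLSPN had the largest difference, −2.58 ± 0.05 (adjusted p = 1.06e-31, edgeR), and it was higher than DMSO at day 1 and lower at day 5. TIMELESS followed the same course with −1.53 ± 0.03. For ATM the difference was −0.22 ± 0.05 (adjusted p = 5.47e-04, edgeR). WEE1, which had already fallen at day 1, still had −1.55 ± 0.06. Of the 9 proliferation markers, 8 had a called difference below 0 at 1 µM and 9 at 5 µM, and their part was not tested. DMSO alone also changed between the days: ATRIP, CHEK1, CHEK2, PKMYT1, TOPBP1 and TIMELESS were lower at day 5, 6 members against 24.5% of all genes (13.4% lower), with CHEK2 at −0.26 ± 0.04 (adjusted p = 4.33e-06, edgeR) and CHEK1 at −0.19 ± 0.03. All 9 proliferation markers were lower there too, with a median of −0.14, and their part was not tested. For DMSO the call of ATRIP ended without DMSO replicate 2 or 3 of day 1 or 1 or 3 of day 5 (adjusted p between 0.0666 and 0.170, edgeR) or under total-count scaling (0.0763), and that of TOPBP1 without replicate 1 of day 1 or 1 or 3 of day 5 (adjusted p between 0.0868 and 0.180, edgeR), under total-count scaling (0.0936) or with no filter (0.0676).

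Olaparib at 1 µM for 5 days was measured in both experiments, with separate DMSO libraries. In a joint fit over 19392 genes, the effect in the panel minus that in the time course was called for 0 members by edgeR's quasi-likelihood test, against 1.94% of all genes; 4 members had an unadjusted p under 0.05, DESeq2 called 1, and 2 members were called without DMSO replicate C of the panel. For CHEK1 the difference was 0.23 ± 0.07 (95% interval 0.09 to 0.37, adjusted p = 0.0967, edgeR), the largest of the 10. Its log2 fold changes were −0.31 in the panel and −0.55 in the time course. For CHEK2 the difference was −0.01 ± 0.07, with a 95% interval of −0.14 to 0.12. The same 7 genes were called lower in each experiment.

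**Figure D4:**
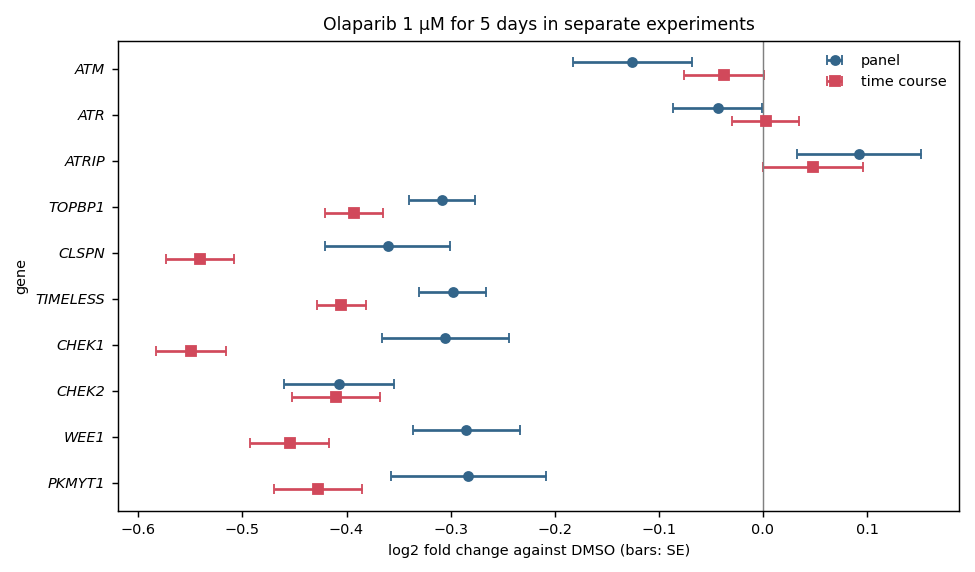
Log2 fold change of each checkpoint gene with 1 µM olaparib for 5 days against DMSO in the panel and in the time course (horizontal axis; bars are SE, n = 3 libraries per group). The 7 genes that fell in both experiments lie left of 0 in each, while ATM, ATR and ATRIP lie between −0.13 and 0.09.

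The rest of the pathway was described by lists of named genes, whose counts stand beside the shares of all genes called in the same comparisons, given above. The list of ATR activation holds 13 genes, the RPA subunits that coat single-stranded DNA, the RAD17, RAD9A, RAD1, HUS1 and RHNO1 clamp genes, ETAA1 and the RFC subunits. Of these, 11 fell with olaparib in the panel, 10 with talazoparib, 12 with 1 µM and 12 with 5 µM olaparib at day 5, and none rose in these 4 comparisons. RFC4, of the clamp loader, had the largest fall in each, −0.50 ± 0.04, −0.48 ± 0.04, −0.56 ± 0.03 and −1.92 ± 0.04 in that order; next came RFC3 with olaparib (−0.33 ± 0.03 in the panel, −0.48 ± 0.03 and −1.75 ± 0.03 at day 5) and RHNO1 with talazoparib (−0.37 ± 0.04). With abiraterone 7 fell, led by RPA3 at −0.42 ± 0.05 and RFC4 at −0.35 ± 0.04, and with enzalutamide 6 fell and 1 rose, HUS1 at −0.41 ± 0.05 and RFC5 at 0.21 ± 0.05. Abiraterone plus olaparib lowered 11, with RFC4 at −0.67 ± 0.04 and RPA3 at −0.60 ± 0.05; enzalutamide plus talazoparib lowered 8 and raised 1, with RFC4 at −0.50 ± 0.04 and RPA3 at −0.44 ± 0.05. At day 1 and 1 µM none was called by edgeR, 4 had an unadjusted p under 0.05 and DESeq2 called 0, and at 5 µM 3 rose and 3 fell, with RHNO1 at −0.28 ± 0.03 and HUS1 at −0.21 ± 0.04.

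TIPIN, the partner of TIMELESS, WDHD1 and CDC45 form the fork list. All 3 fell in each comparison of the panel with DMSO and at day 5 with both doses of olaparib. TIPIN had log2 fold changes of −0.31 ± 0.06 with abiraterone, −0.29 ± 0.06 with enzalutamide, −0.27 ± 0.06 with olaparib, −0.24 ± 0.06 with talazoparib, −0.53 ± 0.06 with abiraterone plus olaparib, and enzalutamide plus talazoparib gave −0.47 ± 0.06. In the time course TIPIN had −0.17 ± 0.04 and −0.20 ± 0.04 at day 1, where it alone of the list fell, and −0.44 ± 0.04 and −1.14 ± 0.04 at day 5. CDC45, part of the replicative helicase, reached −2.88 ± 0.05 at 5 µM and day 5, with WDHD1 at −2.19 ± 0.04; at 1 µM they had −0.73 ± 0.03 and −0.60 ± 0.03. The panel gave CDC45 −0.33 ± 0.07, −0.23 ± 0.06, −0.58 ± 0.07, −0.63 ± 0.07, −0.86 ± 0.07 and −0.71 ± 0.07 in the order of treatments above. WDHD1 had −0.34 ± 0.05 with abiraterone, −0.50 ± 0.05 with olaparib, −0.48 ± 0.05 with talazoparib, −0.56 ± 0.05 with abiraterone plus olaparib, and enzalutamide plus talazoparib gave −0.48 ± 0.05.

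On the ATM side (MRE11, RAD50, NBN, MDC1, H2AX, TP53BP1, RNF8, RNF168, PRKDC and KAT5, 10 genes that sense and mark double-strand breaks), 5 fell with olaparib in the panel, 6 with talazoparib, 6 at 1 µM and 8 at 5 µM olaparib at day 5, and none rose. H2AX, the histone marked at breaks, and MDC1, which binds it, led at 5 µM and day 5 with −1.96 ± 0.04 and −1.79 ± 0.03; at 1 µM they had −0.52 ± 0.03 and −0.45 ± 0.03. In the panel H2AX had −0.38 ± 0.05 with olaparib, beside MRE11 at −0.29 ± 0.04, and −0.50 ± 0.05 with talazoparib, beside MDC1 at −0.47 ± 0.03. With abiraterone 2 rose and 4 fell and with enzalutamide 1 rose and 3 fell, against 52.9% and 53.3% of all genes called, and NBN was higher (0.39 ± 0.03 and 0.35 ± 0.03) while MDC1 was lower (−0.33 ± 0.03 and −0.28 ± 0.03). The combinations lowered 7 and 5 and raised 1 each, led by MDC1 (−0.77 ± 0.04 and −0.60 ± 0.03) and H2AX (−0.63 ± 0.05 and −0.48 ± 0.05). At day 1, 2 fell at 1 µM, NBN with −0.11 ± 0.03 and H2AX with −0.10 ± 0.03, and 3 fell at 5 µM, with H2AX at −0.68 ± 0.03 and MDC1 at −0.39 ± 0.03. PRKDC, the catalytic subunit of DNA-PK, had −0.27 ± 0.08 with abiraterone, −0.20 ± 0.08 with enzalutamide, −0.37 ± 0.08 with talazoparib, −0.27 ± 0.08 and −0.20 ± 0.08 with the combinations, and −0.13 ± 0.04 and −0.46 ± 0.04 at day 5, all called; it was not called with olaparib in the panel (−0.21 ± 0.08) or at day 1 (−0.06 ± 0.04 and −0.03 ± 0.04).

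The CDK targets of the checkpoint (CDC25A, CDC25B, CDC25C, CDK1, CDK2, CCNA2, CCNB1, CCNE1 and CCNE2) gave 7 falls and 1 rise of 9 with olaparib and with talazoparib in the panel, 8 falls at 1 µM and 9 at 5 µM at day 5. Cyclin A2 (CCNA2) had the largest fall in each, −0.58 ± 0.04, −0.56 ± 0.04, −0.62 ± 0.04 and −3.07 ± 0.05 in that order, next to CDC25C with olaparib (−0.55 ± 0.08) and CCNE2 with talazoparib (−0.55 ± 0.08) and at day 5 (−0.58 ± 0.04 and −2.39 ± 0.05). Abiraterone raised 2 and lowered 4, with CCNE2 at 0.39 ± 0.07 and CCNA2 at −0.28 ± 0.04; enzalutamide raised 3 and lowered 2, with CDC25A at −0.38 ± 0.08 and CCNE2 at 0.38 ± 0.07. The combinations raised 1 each and lowered 6 and 5, led by CCNA2 (−0.83 ± 0.05 and −0.54 ± 0.04) and CCNB1 (−0.81 ± 0.03 and −0.50 ± 0.03). At day 1 the list had 1 rise and 3 falls at 1 µM, with CCNE2 at −0.18 ± 0.04 and CDC25A at −0.18 ± 0.03, and 2 rises and 6 falls at 5 µM, with cyclin B1 (CCNB1) at −1.39 ± 0.03 and CCNA2 at −0.82 ± 0.04.

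Genes of checkpoint recovery and turnover (PLK1, AURKA, BORA, PPM1D, BTRC and USP7) gave 1 rise and 3 falls of 6 with olaparib and with talazoparib, and 1 rise and 4 falls at either dose at day 5. The mitotic kinases PLK1 and AURKA, which end the checkpoint, reached −3.35 ± 0.04 and −2.59 ± 0.04 at 5 µM and day 5. Already at day 1 they had −1.93 ± 0.03 and −1.61 ± 0.04 at 5 µM, where 1 rose and 4 fell. The phosphatase PPM1D, which dephosphorylates ATM and its substrates, was higher with olaparib in the panel (0.55 ± 0.05, beside AURKA at −0.48 ± 0.05) and at day 1 and 1 µM (0.51 ± 0.04, beside AURKA at −0.20 ± 0.03; 1 rise and 3 falls). Talazoparib gave PLK1 −0.59 ± 0.05 and AURKA −0.53 ± 0.05, and 1 µM at day 5 gave PLK1 −0.67 ± 0.03 and BORA −0.64 ± 0.10. ARPi gave 4 falls with abiraterone (PLK1 −0.22 ± 0.05, AURKA −0.21 ± 0.05) and 3 with enzalutamide (AURKA −0.25 ± 0.05, PPM1D −0.24 ± 0.05). The combinations raised 1 each and lowered 5 and 3, with PLK1 at −1.09 ± 0.05 and −0.78 ± 0.05 and AURKA at −0.94 ± 0.05 and −0.70 ± 0.05.

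CDKN1A, which encodes the CDK inhibitor p21, rose in every comparison with DMSO: by 0.82 ± 0.05 with abiraterone, 0.18 ± 0.06 with enzalutamide, 2.18 ± 0.05 with olaparib, 1.98 ± 0.05 with talazoparib, and 2.70 ± 0.05 and 2.31 ± 0.05 with the combinations. In the time course it rose by 1.87 ± 0.02 and 3.71 ± 0.03 at day 1 and by 2.46 ± 0.03 and 4.15 ± 0.03 at day 5. MDM2, an E3 ubiquitin ligase, rose by 0.45 ± 0.03 with olaparib, 0.40 ± 0.03 with talazoparib, 0.65 ± 0.03 with abiraterone plus olaparib, and by 0.48 ± 0.03, 1.13 ± 0.03, 0.37 ± 0.03 and 0.72 ± 0.03 in the order of the time course.

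Of the 12 cell cycle transcription factors (E2F1, E2F2, E2F3, E2F4, E2F7, E2F8, FOXM1, MYBL2, LIN9, LIN54, RBL1 and RBL2), 9 fell and 1 rose with olaparib and with talazoparib in the panel, 9 fell at 1 µM at day 5, and 10 fell and 1 rose at 5 µM. E2F1 had −0.34 ± 0.05, −0.48 ± 0.05, −0.53 ± 0.03 and −2.19 ± 0.04 in these comparisons, all called. Leading genes were E2F7 and E2F8 with olaparib (−0.60 ± 0.07 and −0.55 ± 0.08) and with talazoparib (−0.60 ± 0.07 and −0.59 ± 0.08), E2F8 and RBL1 at 1 µM (−0.66 ± 0.05 and −0.59 ± 0.04), and MYBL2 and E2F8 at 5 µM (−2.77 ± 0.03 and −2.66 ± 0.07). With abiraterone 2 rose and 4 fell, with MYBL2 at −0.29 ± 0.04 and RBL2 at 0.28 ± 0.03, and E2F1 had 0.07 ± 0.05, not called. Enzalutamide raised 3 and lowered 2, with LIN9 at 0.27 ± 0.06 and RBL2 at 0.21 ± 0.03, and E2F1 rose by 0.15 ± 0.05. The combinations raised 2 each and lowered 9 and 6, with MYBL2 at −0.82 ± 0.04 and −0.62 ± 0.04, E2F8 at −0.65 ± 0.09 in the one and FOXM1 at −0.36 ± 0.03 in the other, and E2F1 at −0.30 ± 0.06, called, and −0.12 ± 0.05, not called. At day 1, 1 fell at 1 µM (E2F3, −0.11 ± 0.03), and 2 rose and 6 fell at 5 µM (E2F7 0.47 ± 0.04, E2F3 −0.28 ± 0.03), with E2F1 at −0.08 ± 0.03 and 0.00 ± 0.03, not called.

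Proliferation markers were counted above for PARPi at day 5. With each ARPi 3 of 9 were called, against 52.9% and 53.3% of all genes: 2 rose and 1 fell with abiraterone (MCM3 0.32 ± 0.04, MCM7 −0.18 ± 0.04) and 2 rose and 1 fell with enzalutamide (MCM3 0.37 ± 0.04, TOP2A 0.35 ± 0.03). The combinations raised 1 each and lowered 8 and 6, led by MKI67, given above, and MCM7 (−0.55 ± 0.04 and −0.44 ± 0.04). At day 1, 7 of 9 fell at 1 µM, led by MCM6 (−0.33 ± 0.03) and MCM5 (−0.21 ± 0.03), and at 5 µM TOP2A came after MKI67 with −0.55 ± 0.03. With PARPi at day 5 the gene after MKI67 was TOP2A with olaparib in the panel (−0.46 ± 0.03), MCM5 with talazoparib (−0.43 ± 0.07), MCM7 at 1 µM (−0.56 ± 0.02) and TOP2A at 5 µM (−2.84 ± 0.03).

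**Figure D5:**
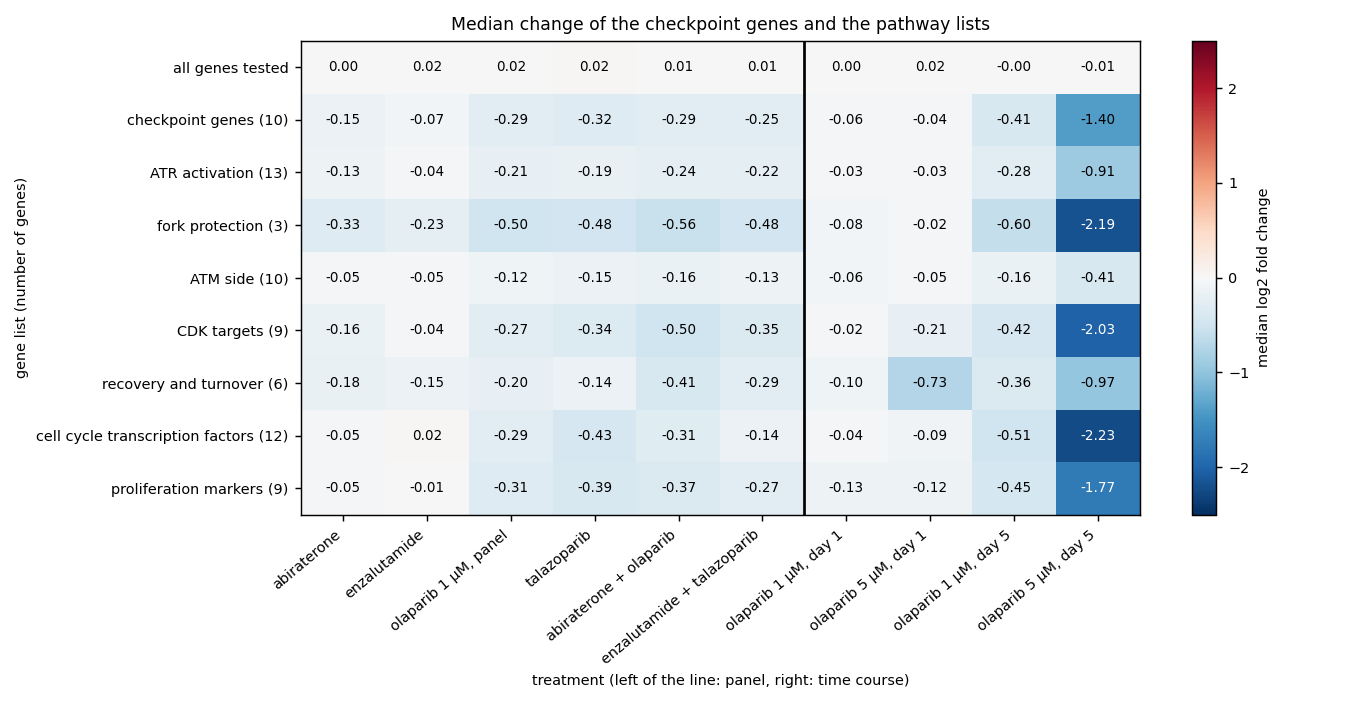
Median log2 fold change against DMSO (colour) over all genes tested, the 10 checkpoint genes and 7 of the lists of pathway genes, for the 6 treatments of the panel and the 4 olaparib groups of the time course. At 5 µM olaparib and day 5 the medians of these 7 lists run from −2.23 for the cell cycle transcription factors to −0.41 for the ATM side.

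How the members varied together was described over the 39 libraries, after log2 CPM was centred on the mean of each experiment; the libraries share their treatments, so r describes this design only. The 21 pairs among CHEK1, CHEK2, WEE1, PKMYT1, CLSPN, TOPBP1 and TIMELESS, a grouping made after the values were seen, had Pearson r between 0.891 and 0.988. Pairs of these with ATM, ATR or ATRIP had r between −0.254 and 0.335, and the 3 pairs among ATM, ATR and ATRIP between −0.146 and 0.296. Of 17960 genes that passed the filters of both experiments, those nearest to CHEK1 were EXO1 (r = 0.995), GINS1 (0.994) and MCM10 (0.994). CLSPN lay nearest to ORC1 (0.993), FEN1 (0.990) and XRCC2 (0.990), PKMYT1 to FEN1 (0.995), RRM2 (0.994) and CDCA5 (0.992), and TOPBP1 to SMC2 (0.995), RFC4 (0.993) and UBR7 (0.992). TIMELESS was followed by CENPH (0.993), FANCG (0.992) and TCF19 (0.992), CHEK2 by HMGN2 (0.985), PSIP1 (0.984) and HNRNPA1 (0.982), and WEE1 by TOP2A (0.981), KIF18B (0.973) and C4orf46 (0.972). The nearest genes of ATR were ACADL (0.903), LNPEP (0.897) and DSG2 (0.892). For ATM they were NOPCHAP1 (0.722), VPS13D (0.696) and XRN1 (0.696), and for ATRIP, the member least like any other gene, PRMT7 (0.614), EIF2B5 (0.604) and GTF3C1 (0.601).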

How the data were processed

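RNA-seq of 39 libraries of C4-2B cells in 13 groups of 3 was analysed, prepared with a stranded kit. The authors ran nf-core/rnaseq, with trimming by Trim Galore, alignment to GRCh38 by STAR and quantification by Salmon on GENCODE transcripts, and deposited whole-number estimated counts for each gene, not scaled. How they were rounded and which strand setting was used were not stated. Symbols, coordinates and canonical transcript lengths came from another GENCODE release than the authors used; it gave a symbol to 62666 of 63187 gene IDs, and the other 521 held 0.120% of all counts. Promoters came from RefSeq.

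The estimated counts, whole as deposited and so not rounded further, were analysed with edgeR 4.0.16 in R 4.3.3 (limma 3.58.1), using TMM scaling, filterByExpr by group, robust dispersions and quasi-likelihood F tests. Benjamini-Hochberg adjustment covered all genes tested. Each experiment had 1 fit of all its groups without covariates, and a joint fit of 19392 genes compared the experiments. The standard error is the absolute log2 fold change divided by the square root of F, and 95% intervals extend 1.96 SE to either side. Pearson r used log2 CPM with a prior count of 2. Comparing replicates of a group, chi-square per degree of freedom was 2.18 to 6.03, more than sampling of reads alone gives, so no library was counted as a repeat of another. The steps were tested on simulated data.

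The 10 members were all named. From each list, the 2 called genes with the largest absolute log2 fold change against DMSO were named, together with TIPIN, PRKDC, CDKN1A and E2F1, and for each member the 3 genes of highest Pearson r over the 39 libraries. KLK3 and TMPRSS2 served as drug controls. Members and lists were chosen with earlier results of these data known, the lists from general knowledge. Results that need items withheld for evaluation, 1 list among them, are not reported here.

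Alternatives were RLE or total-count scaling, no filter on low counts or at least 50 counts in at least 3 libraries, DESeq2 1.42.0 (Wald test, local fit), a fit of only the groups compared, a threshold of 1.5-fold, a replicate block, and leaving out each library in turn. Other assays of the study were not analysed here.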

Additional observations from a re-analysis of the deposited data

Results flagged for a closer look

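These are differences between effects, each tested as a difference (edgeR's quasi-likelihood test, adjusted p under 0.05). Combined treatment differed from the added single-drug effects for ATM and CHEK2 with abiraterone and olaparib, by 0.30 ± 0.08 and 0.25 ± 0.08 on the log2 scale (SE), and for ATM and CLSPN with enzalutamide and talazoparib, by 0.38 ± 0.08 and 0.33 ± 0.08. The call of CHEK2 ended in 6 of 12 fits that left out 1 library (adjusted p between 0.0504 and 0.0994), that of ATM with abiraterone and olaparib ended without DMSO replicate B (0.0516), and that of CLSPN ended when only the groups compared were fitted (0.0676).

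The olaparib effect differed between the days. At 1 µM the effect at day 5 minus that at day 1 was −0.49 for TIMELESS, −0.47 for CLSPN, −0.46 for PKMYT1, −0.42 for CHEK1, −0.37 for WEE1, −0.37 for TOPBP1 and −0.36 for CHEK2. At 5 µM it was −2.58 for CLSPN, −2.44 for PKMYT1, −2.06 for CHEK1, −1.55 for WEE1, −1.53 for TIMELESS, −1.17 for CHEK2, −1.13 for TOPBP1 and −0.22 for ATM. With 5 µM, CLSPN and TIMELESS were called above DMSO at day 1 and below it at day 5, whereas ATM was called above DMSO at day 1 and not called at day 5. All 9 proliferation markers had a called difference below 0 at 5 µM, and their part was not tested.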

How the results depend on the processing

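No called change of a member turned its direction under any alternative listed, the scalings included. RLE and total-count scaling moved no count of called members by over 1.5 times. A threshold of 1.5-fold left 0 members called in 16 comparisons that had calls, since most changes are smaller than this fold. It left 7, 7 and 7 for 5 µM olaparib at day 5 against DMSO, against 1 µM and minus day 1. The joint comparison had 0 called without this threshold as well. For the departure from additivity of enzalutamide and talazoparib, 4 members were called with at least 50 counts in at least 3 libraries and 1 with only the groups compared. The joint comparison called 1 member with no filter and 1 with DESeq2. Leaving out 1 library gave 2 to 6 members for enzalutamide, 3 to 7 for olaparib added to abiraterone, 1 to 3 for additivity of abiraterone and olaparib, 2 to 4 for that of enzalutamide and talazoparib, 1 to 3 for 1 µM at day 1 and 0 to 2 for the joint comparison. Apart from the fold threshold, the cause was not tested.

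Of the 117 single calls, 96 ended under the 1.5-fold threshold, 10 under total-count scaling, 6 with only the groups compared, 2 with no filter, and 1 each with RLE scaling, DESeq2 and the stricter filter. Leaving out 1 library gave 816 values, of which 58 were no longer called.

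With the replicate letter or number as a replicate block, all 117 single calls held and the 20 counts of called members moved by no more than 1.5 times, to 3 and 3 from 2 and 2 for additivity and to 8 from 7 for 5 µM at day 5. Deviations from the group means were correlated between libraries with the same letter or number. In the panel r lay between −0.0686 and 0.0636 over 63 pairs. In the time course it lay between −0.133 and 0.116 over 45 pairs, 2 of them over 0.1. These r over all genes showed no pairing, but a pairing limited to some genes could be missed, and the labels do not settle it. Of 21 libraries in the panel 3 correlated best with their own letter, and of 18 in the time course 3 with their own number.

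Total-count scaling moved the share of higher calls among all genes called: 60.0% against 48.7% for abiraterone, 43.0% against 55.1% for olaparib and 39.99% against 54.5% for talazoparib in the panel, 56.3% against 42.2% for additivity of enzalutamide and talazoparib, 59.9% against 39.8% and 60.3% against 48.0% for 1 and 5 µM at day 1, 55.0% against 44.6% and 38.7% against 49.6% for 5 against 1 µM at days 1 and 5, 37.4% against 52.3% and 33.2% against 49.6% for day 5 minus day 1 at 1 and 5 µM, and 57.7% against 45.3% for DMSO. For day 5 minus day 1 at 5 µM it moved the median of all genes from −0.02 to −0.15, and the 8 called members lay below that shift under this scaling. DESeq2 gave 57.4% against 46.9% for the joint comparison, with 678 genes called against 377, and leaving out 1 library gave 176 to 589. For 1 µM at day 1, 2928 genes were called, and 1932 without DMSO replicate 1.

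Limits are the 3 libraries per group of unstated origin, 1 cell line, relative levels that do not show RNA per cell, and counts whose strand setting was not stated. Depth limited no member, with a lowest count of 183.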
